A study of Homo sapiens with 4 samples.

Results

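The genes described here are 10 members of the Hippo pathway and its transcriptional output. They are the regulators *NF2*, *LATS2*, *AMOTL1* and *AMOTL2*, the coactivator *YAP1*, and the target genes *CCN1* (formerly *CYR61*), *CCN2* (formerly *CTGF*), *ANKRD1*, *AXL* and *ARHGAP29*. They were chosen by name, and each was measured by the array probes listed under its RefSeq transcripts. Those probes numbered 12, since *NF2* and *AMOTL1* had 2 each, and the 10 genes were taken from 22439 genes with a matched probe. *NF2*, *AMOTL1* and *ARHGAP29* are among the genes that the authors listed as putative targets of both strands, partly from these same arrays. Their values here, and member counts that include them, are thus not independent of that list.

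The expression data came from 4 one-color arrays of cells labeled A549, an established human lung adenocarcinoma cell line. There was 1 array after transfection of *miR-486-5p*, the guide strand of pre-*miR-486*, and 1 array after transfection of *miR-486-3p*, the passenger strand. The other 2 arrays, called mock 1 and mock 2, came from cells that received reagent and no miRNA. An array with a control miRNA was not analysed here, so an effect of the strand and an effect of transfected small RNA as such cannot be told apart. With a single array per strand, precision is limited throughout, and both strands were set against the same mock arrays. The arrays had 60901 spots each, and 30693 (*miR-486-5p*), 31516 (*miR-486-3p*), 30786 (mock 1) and 31012 (mock 2) of 58201 probes were well above background by the scanner software.

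The Hippo pathway is a kinase cascade that restrains growth. Merlin, the product of *NF2*, helps bring LATS kinases to the membrane, where they phosphorylate the coactivators YAP and TAZ and hold them out of the nucleus, and angiomotin-family proteins bind YAP directly. YAP that reaches the nucleus binds TEAD transcription factors and turns on genes such as *CCN1*, *CCN2* and *ANKRD1*, and in many carcinomas, lung adenocarcinoma among them, this output is linked to growth and invasion.

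The cell type was checked against marker lists. Of 6 epithelial markers, the keratin genes *KRT7*, *KRT8*, *KRT18* and *KRT19* were well above background on all 4 arrays, *EPCAM* on 2 and *CDH1* on 0. The summed signal of this list, in multiples of each array's 75th percentile, was 171 after *miR-486-5p*, 173 after *miR-486-3p*, 230 on mock 1 and 228 on mock 2, and its brightest gene was *KRT18*. Of the alveolar markers, *SFTPC* passed on every array, *NKX2-1* on 2 and *SFTPB* on 0. Genes known for strong expression in A549 were low on these arrays. The summed signal of *AKR1C1*, *AKR1B10* and *ALDH1A1* was 0.543, 0.509, 0.502 and 0.531 in the same order of arrays, its brightest gene was *AKR1C1*, and *AKR1B10* passed on the *miR-486-3p* array alone. Endothelial markers summed to 0.644, 0.593, 0.604 and 0.561, with *CDH5* the brightest and *PECAM1* at background on all arrays. Fibroblast markers summed to 0.143, 0.159, 0.158 and 0.166, with *PDGFRB* the brightest and *COL3A1* at background on all arrays. The keratin genes thus marked the cells as epithelial, *CDH1*, *SFTPB* and most of the A549-associated signal were absent or low, and the identity of the line, and any part of these marker levels in the results, was not tested.

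Values below are log2 signals from which the 75th percentile of the array was subtracted, and a log2 difference compares a transfected array with the mean of both mocks. These are bulk samples, in which fewer expressing cells and less RNA per cell cannot be told apart. Differences beyond 0.5 in size were counted, and limma, fitted to all 4 arrays, gave Benjamini-Hochberg adjusted p-values over all probes. After *miR-486-5p*, 3 of 10 members lay below −0.5 (*NF2*, *ANKRD1* and *ARHGAP29*), against 15.9% of all genes, and 4 lay above 0.5 (*LATS2*, *AMOTL2*, *YAP1* and *CCN2*), against 13.8%. limma called 1 member lower (*ARHGAP29*), against 6.66% of all genes, and 2 higher (*LATS2* and *CCN2*), against 3.58%. After *miR-486-3p*, 6 members lay below −0.5, namely *NF2* and all 5 target genes, against 27.2% of all genes, and 0 lay above 0.5, against 30.4%. Of these 6, *ANKRD1* and *ARHGAP29* passed the background filter through the mock arrays alone, and over the 8 members well above background on all arrays 4 lay below −0.5. Here limma called 7 members lower, against 31.6%, and 1 higher, against 31.9%; *AMOTL1* counts on both sides because its 2 probes moved in opposite directions. Over those 8 members limma called 5 lower and 1 higher. Under that filter 4268 genes lay below −0.5, which was 51.5% of the genes past 0.5 in size, and limma called 5532 lower and 5311 higher. The total of genes under that filter is not given here. The shares above thus do not apply to these counts, and the counts of the 8 members are not set against a share. The count of 0 above 0.5 stands beside 1 member called higher by limma, and 1 at an unadjusted limma p under 0.05, where 6106 of 16662 genes passed. The median log2 difference of the members was 0.04 after *miR-486-5p*, where that of all genes was 0.03. Over the 8 members well above background on all arrays it was 0.34, where that of all such genes was 0.02. After *miR-486-3p* the median of all members was −1.08, where that of all genes was 0.06. Over the same 8 members it was −0.50, where that of all such genes was 0.01.

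**Figure D1:**
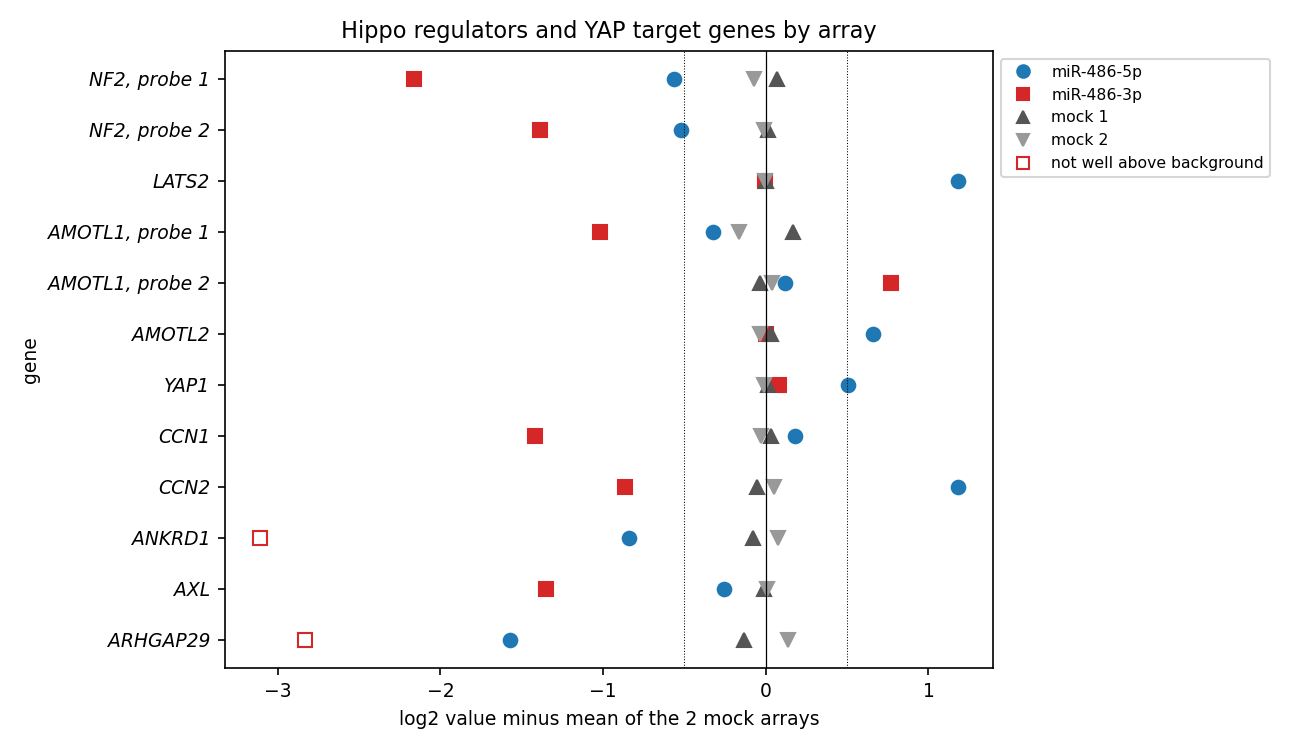
Log2 value of each probe of the 10 genes on each of the 4 arrays, minus the mean of the 2 mock arrays (horizontal axis), with 1 line per probe. Circles are *miR-486-5p*, squares *miR-486-3p*, triangles the mock arrays, open symbols values not well above background, and dotted lines ±0.5; the *miR-486-3p* squares of *NF2* and of the target genes lie to the left of both mock arrays, while those of *LATS2*, *AMOTL2* and *YAP1* lie near 0.

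*NF2*, which encodes merlin, was measured by 2 probes listed under different transcripts. The first read 4.95 after *miR-486-5p*, 3.35 after *miR-486-3p*, 5.58 on mock 1 and 5.44 on mock 2. The second read −0.56, −1.43, −0.03 and −0.05 in the same order. On both probes the order was the same, with the *miR-486-3p* array lowest, the *miR-486-5p* array next and the mock arrays highest. Averaged over the probes, *NF2* was 3.42-fold lower after *miR-486-3p* (log2 difference −1.77), and limma called both probes, at −2.16 (SE 0.114, adjusted p = 0.00782) and −1.39 (SE 0.0881, adjusted p = 0.00862). After *miR-486-5p* the difference was −0.54, and neither probe was called (adjusted p = 0.0794 and 0.0657), although the gene was with normexp and with probes well above background on all arrays.

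*LATS2* encodes the kinase that phosphorylates YAP. Its probe read 0.89 after *miR-486-5p*, −0.30 after *miR-486-3p*, −0.29 on mock 1 and −0.30 on mock 2. The *miR-486-5p* array stood alone above the other 3, which lay within 0.01 of each other. *LATS2* rose 2.26-fold after *miR-486-5p* (log2 difference 1.18, SE 0.0873, adjusted p = 0.0476 in limma), a call lost with the authors' log2 values and with no filter on dim probes. The difference was 1.15 with those values and 1.18 with no filter. After *miR-486-3p* the log2 difference of 0.00 was below 0.01 in size and not called (adjusted p = 0.970), and under median scaling, which lowers all genes on that array together, it read −0.41.

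The angiomotin-like genes encode scaffold proteins that tether YAP in the cytoplasm. For *AMOTL2* the values were 4.96 after *miR-486-5p*, 4.30 after *miR-486-3p*, 4.33 on mock 1 and 4.27 on mock 2. The *miR-486-3p* value lay between the mock arrays and the *miR-486-5p* value above them. The *miR-486-5p* difference of 0.66 (SE 0.0941) passed 0.5 but not limma's threshold (adjusted p = 0.0566). For *AMOTL1*, 1 probe read −1.89 after *miR-486-5p*, −2.59 after *miR-486-3p*, −1.41 on mock 1 and −1.74 on mock 2, and the other read 1.096, 1.75, 0.94 and 1.01. The probes disagreed after *miR-486-3p*, the first lying below both mock arrays and the second above both, although they are listed under the same transcript. limma called the first lower (log2 difference −1.02, adjusted p = 0.0361) and the second higher (log2 difference 0.77, adjusted p = 0.0180), so the gene mean of −0.12 describes neither probe. The lower call was lost with normexp and with no filter on dim probes, and the higher call with median scaling.

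*YAP1* itself was printed in 10 spots on every array, which also shows the technical spread of a single probe. The spots ran from 2.85 to 3.01 with a median of 2.94 after *miR-486-5p*, and from 2.45 to 2.55 with a median of 2.51 after *miR-486-3p*. On mock 1 they ran from 2.38 to 2.46 with a median of 2.45, and on mock 2 from 2.37 to 2.45 with a median of 2.42. The spots of the *miR-486-5p* array lay above every spot of the other arrays, and those of the *miR-486-3p* array overlapped the mock spots. Spots of an array share 1 RNA sample and are no replicates of the transfection. The means over spots were 2.93, 2.50, 2.43 and 2.41, with SDs within an array of 0.05, 0.04, 0.03 and 0.03. The log2 difference was 0.51 after *miR-486-5p* (SE 0.0882, adjusted p = 0.0678 in limma), a 1.42-fold higher signal that was not called, and against mock 1 alone it was 0.49. After *miR-486-3p* it was 0.08 (adjusted p = 0.479), and −0.32 under median scaling.

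**Figure D2:**
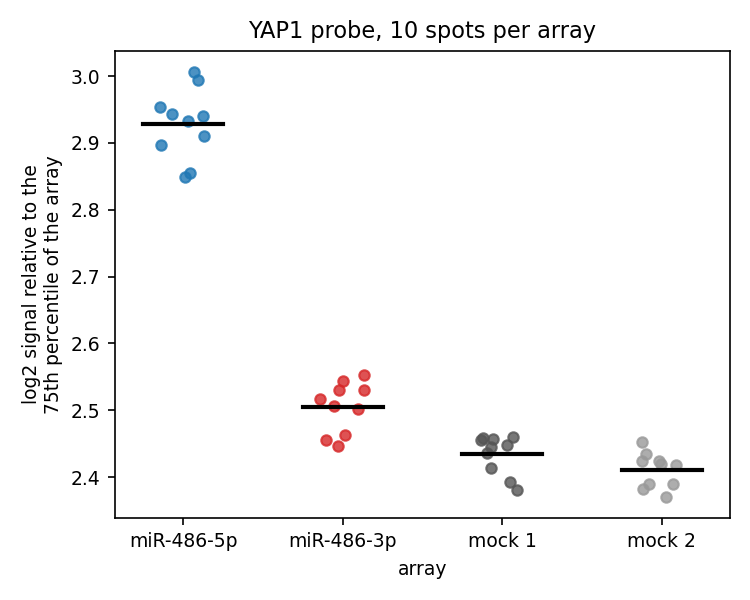
Log2 signal of the 10 *YAP1* spots on each array, relative to the 75th percentile of the array (vertical axis), with a bar at the mean of the spots. The *miR-486-5p* spots, from 2.85 to 3.01, lie above all others, and the remaining arrays lie between 2.37 and 2.55.

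*CCN2* encodes a secreted matricellular protein and is a widely used readout of YAP activity. Its probe read 2.83 after *miR-486-5p*, 0.78 after *miR-486-3p*, 1.60 on mock 1 and 1.70 on mock 2. The strands lay on opposite sides of the mock arrays. *CCN2* rose 2.27-fold after *miR-486-5p* (log2 difference 1.18, SE 0.103, adjusted p = 0.0476) and fell 1.82-fold after *miR-486-3p* (log2 difference −0.87, SE 0.103, adjusted p = 0.0170). In the table of log2 values made by the authors, *CCN2* was listed at 9.54, 7.54, 8.30 and 8.43 in the same order of arrays, and the *miR-486-5p* call was lost, since limma called 0 genes for that strand with those values or with no filter. The *miR-486-5p* difference of *CCN2* was 1.175 with those values and 1.18 with no filter. Of 15808 genes measured for both strands, 319 (2.02%) passed 0.5 upward after *miR-486-5p* and downward after *miR-486-3p*, and *CCN2* was the 1 member among them. Over 13473 genes with every probe well above background on the 4 arrays, the 3 genes with differences nearest to those of *CCN2* were *MRAP2* (1.098 with *miR-486-5p*, −0.90 with *miR-486-3p*, a Euclidean distance of 0.0933), *ARAP2* (1.11 and −0.94, distance 0.104) and *TPRX1* (1.18 and −0.98, distance 0.114). These are distances between pairs of log2 differences from 2 comparisons that share the mock arrays.

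The bases before the start of *CCN2* are shown because TEAD factors, through which YAP acts, bind the motif GGAATG. A link between the motif and the changes on the arrays was not tested. RefSeq promoter windows of GRCh38.p14 were at hand for 9 of the 10 members. In the 250 bases before the start, GGAATG on either strand (CATTCC is its reverse complement) was found in 3 of these 9 (*CCN2*, *ANKRD1* and *YAP1*) and in 11.9% of 27305 promoters of the same length. *CCN2* held 3 matches, 2 of them in 1 window, *ANKRD1* 2 and *YAP1* 1, all on the strand of the gene. The windows, 5′ to 3′ on the strand of the gene with the motif in capitals, were as follows.
*CCN2*, chr6:131951524-131951553, minus strand: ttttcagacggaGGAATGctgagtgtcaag
*CCN2*, chr6:131951450-131951488, minus strand: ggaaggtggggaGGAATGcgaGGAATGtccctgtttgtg
*ANKRD1*, chr10:90921290-90921319, minus strand: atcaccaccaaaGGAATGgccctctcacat
*ANKRD1*, chr10:90921198-90921227, minus strand: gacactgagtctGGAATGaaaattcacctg
*YAP1*, chr11:102110273-102110302, plus strand: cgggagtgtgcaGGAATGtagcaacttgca
The motif began 169, 104 and 95 bases before the start of *CCN2*, 220 and 128 before that of *ANKRD1*, and 162 before that of *YAP1*. The AP-1-like motif TGANTCA, with any base at N, was searched on both strands because AP-1 factors often bind beside TEAD. This pattern is looser than the AP-1 consensus TGA(C/G)TCA. It was found in *ANKRD1* alone among the 9 members and in 6.60% of all promoters. The *ANKRD1* match has T at N, so it matches the looser pattern and not the consensus. Its window was chr10:90921264-90921293 on the minus strand, acatttcttccTGATTCAcatattcagcag, in which the motif began 195 bases before the start and overlapped no GGAATG match. A match describes the letters of the window and is no measured binding site.

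*CCN1* encodes a matricellular protein of the same family as *CCN2*. Its probe read 7.07 after *miR-486-5p*, 5.47 after *miR-486-3p*, 6.92 on mock 1 and 6.85 on mock 2. The *miR-486-3p* array stood alone below the others. *CCN1* fell 2.67-fold after *miR-486-3p* (log2 difference −1.42, SE 0.0936, adjusted p = 0.00882), and the *miR-486-5p* difference of 0.18 was not called (adjusted p = 0.265).

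*AXL*, a receptor tyrosine kinase whose gene is bound by YAP and TEAD, read 5.74 after *miR-486-5p*, 4.65 after *miR-486-3p*, 5.99 on mock 1 and 6.01 on mock 2. Both strands lay below the mock arrays, the *miR-486-3p* array by more. *AXL* fell 2.55-fold after *miR-486-3p* (log2 difference −1.35, SE 0.0877, adjusted p = 0.00873). The *miR-486-5p* difference of −0.26 was not called (adjusted p = 0.156).

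*ANKRD1* and *ARHGAP29* were dim, and on the *miR-486-3p* array neither was well above background. *ANKRD1*, which encodes a nuclear ankyrin repeat protein, read −3.95 after *miR-486-5p*, −6.22 after *miR-486-3p*, −3.18 on mock 1 and −3.03 on mock 2. The strands were both below the mock arrays. For a signal not well above background, the bound takes the lowest signal among probes well above background on that array, or the measured value if higher. Against this limit *ANKRD1* was at least 2.44-fold lower after *miR-486-3p* (log2 −1.29; adjusted p = 0.00762 in limma on the measured values). After *miR-486-5p* the difference was −0.84, and it was not called (adjusted p = 0.0561).

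*ARHGAP29* is a target gene through which YAP acts on the actin cytoskeleton. It read −3.57 after *miR-486-5p*, −4.83 after *miR-486-3p*, −2.13 on mock 1 and −1.86 on mock 2. Both strands were lower than either mock array. *ARHGAP29* fell 2.98-fold after *miR-486-5p* (log2 difference −1.57, SE 0.166, adjusted p = 0.0492), a call that the authors' values and no filter ended. The *miR-486-5p* difference was −1.595 with the authors' values and −1.57 with no filter. *ARHGAP29* was at least 5.27-fold lower after *miR-486-3p* (log2 −2.40, adjusted p = 0.00825 in limma on the measured values). With normexp background correction, whose offset of 50 compresses dim signals, the *miR-486-5p* differences of *ARHGAP29* and *ANKRD1* shrank to −0.39 and −0.04, and those after *miR-486-3p* to −0.41 and −0.01, where the call of *ANKRD1* was lost.

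**Figure D3:**
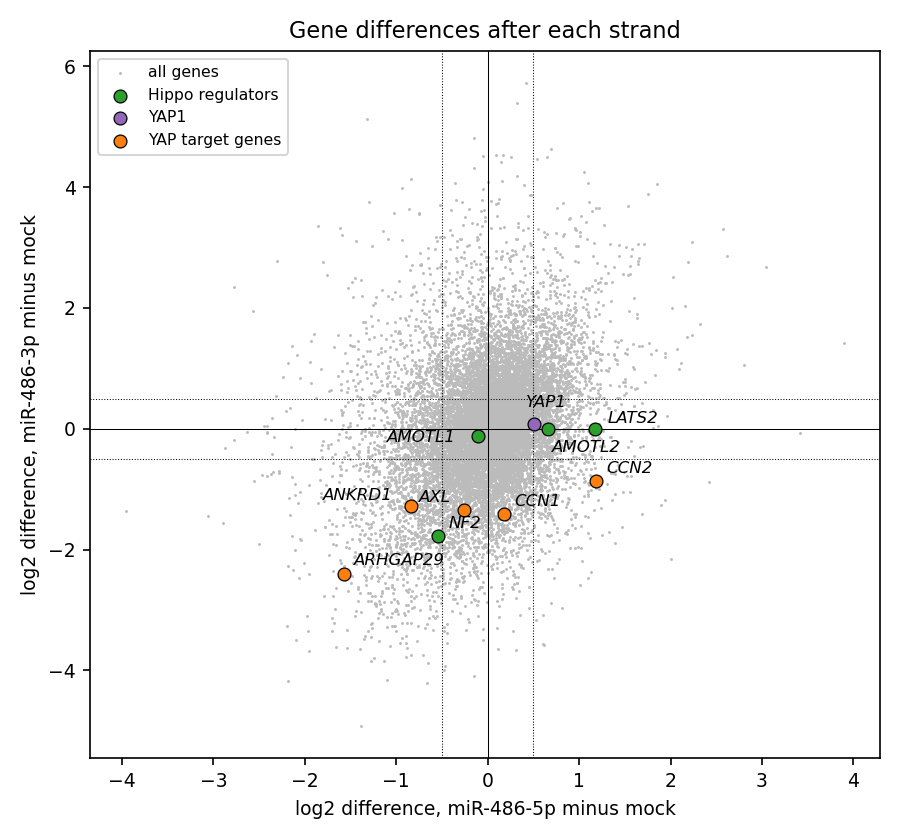
Log2 difference of each gene for *miR-486-5p* (horizontal axis) against *miR-486-3p* (vertical axis), both against the same 2 mock arrays, for 15808 genes in gray, with the 10 members labeled and colored by role. Dotted lines mark ±0.5; the target genes lie below the horizontal axis, with *CCN2* at 1.18 and −0.87 and *ARHGAP29* at −1.57 and −2.40.

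The strands were also set against each other, *miR-486-3p* minus *miR-486-5p*. This compares 2 single arrays, and limma's spread comes from the mock arrays alone, so its p-values do not measure variation between transfections. Below −0.5 lay 7 of 10 members, against 26.4% of all genes, and above 0.5 lay 0, against 28.6%. limma called 8 members lower, against 27.3%, and 1 higher, the second probe of *AMOTL1*, against 26.7%. At an unadjusted p under 0.05 these counts were 9 and 1, where 5540 and 5591 of 16662 genes passed. The median of the members was −0.96 and that of all genes 0.03. *ANKRD1* and *ARHGAP29*, not well above background after *miR-486-3p*, entered this comparison through other arrays. Over the 8 members well above background on all arrays, 6 lay below −0.5. The median over these 8 was −1.14, where that of all such genes was −0.02. limma fitted to such probes called 7 of the 8 lower, *YAP1* among them, and 1 higher. Under that filter it called 5090 genes lower and 4667 higher, and 4126 genes lay below −0.5, which was 51.7% of those past 0.5 in size. The total of genes under that filter is not given here, so the counts of the 8 members are not set against a share. *CCN2* differed by −2.05 (SE 0.119, adjusted p = 0.0119), *CCN1* by −1.60 (SE 0.108, adjusted p = 0.0125) and *LATS2* by −1.18 (SE 0.101, adjusted p = 0.0147). In the fit to all probes in use, *YAP1* was the member that limma called in neither direction, at −0.42 (adjusted p = 0.0624).

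Scaling bears on these counts. Median scaling moved the median of all genes by −0.09 after *miR-486-5p*, by −0.40 after *miR-486-3p* and by −0.31 for the strand difference. The share of lower genes among those past 0.5 was 53.5% after *miR-486-5p*, 47.2% after *miR-486-3p* and 48.0% for the strand difference in the 75th percentile scaling, and 65.7%, 71.6% and 68.0% under median scaling. The median of the members after *miR-486-3p* was then −1.48, against −0.35 for all genes, and quantile normalization gave −0.95 against 0.01. It shrank to −0.25 against 0.09 with normexp.

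**Figure D4:**
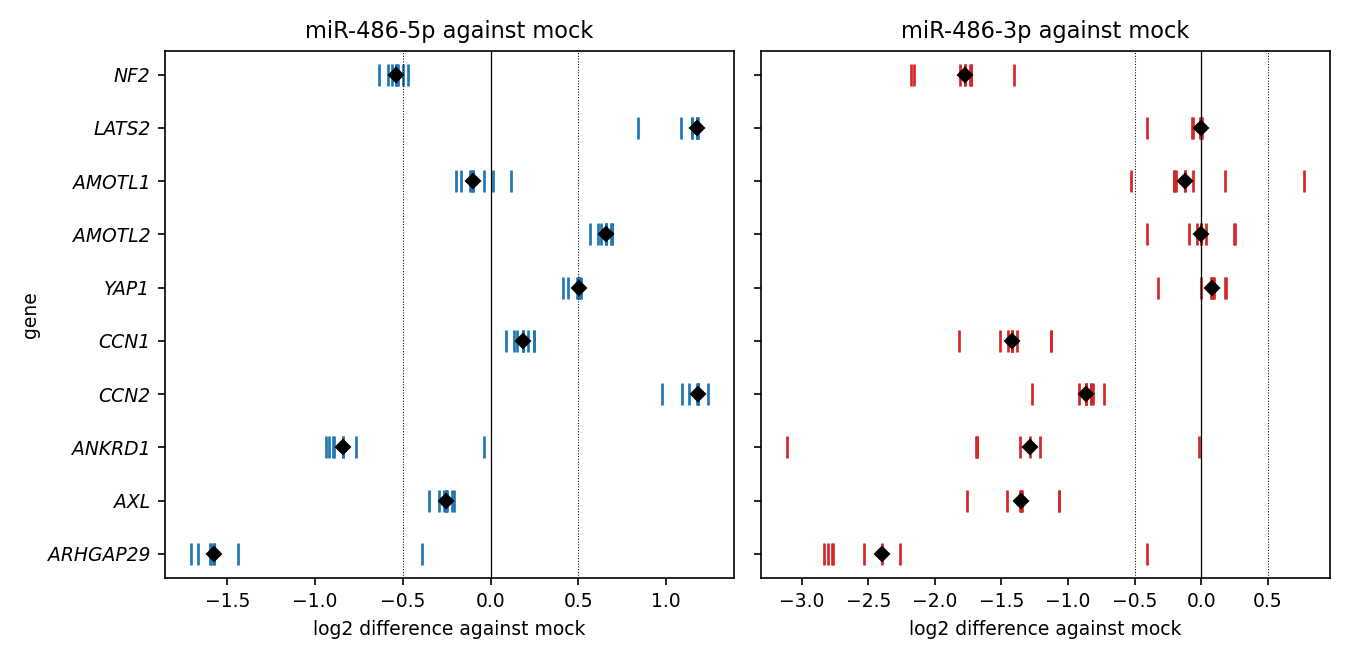
Log2 difference of each gene against mock for *miR-486-5p* (left) and *miR-486-3p* (right). Diamonds are the values given in the text, ticks the values under each alternative scaling, background correction, filter, probe choice or single mock array, and dotted lines ±0.5; ticks of *CCN1*, *CCN2*, *AXL* and *NF2* after *miR-486-3p* all lie below −0.5, while *AMOTL1* has ticks on both sides of 0.

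Other genes of the pathway were taken from 5 lists with 68 genes, of which 67 had a matched probe. Pooled, 11 of 62 measured genes lay below −0.5 and 8 above 0.5 after *miR-486-5p*, and limma called 5 of 63 lower and 0 higher (22 and 16 at an unadjusted p, and 13 and 9 by the methods' t-test without adjustment). Of all genes 15.9% and 13.8% lay past the limits there, close to the lists, and limma called 6.66% lower and 3.58% higher. At an unadjusted p, 4187 and 3876 of 16662 genes passed. After *miR-486-3p*, 24 of 63 lay below −0.5 and 14 above 0.5, against 27.2% and 30.4% of all genes, with 26 called lower and 18 higher, against 31.6% and 31.9%. The pooled medians, −0.07 and −0.06, lay close to those of all genes, 0.03 and 0.06, and the lists differed among themselves.

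The core kinase cassette comprises the MST kinases *STK3* and *STK4*, their scaffold *SAV1*, *LATS1* and the MOB coactivators. After *miR-486-5p* limma called 0 of 6 in either direction (2 lower and 2 higher at an unadjusted p), with *LATS1* at 0.67 (smallest adjusted p of its probes 0.0503), *STK3* at −0.54, *STK4* at −0.30, *MOB1B* at 0.26, *MOB1A* at −0.15 and *SAV1* at −0.02. After *miR-486-3p* it called 3 higher and 0 lower (3 and 0 at an unadjusted p), against 31.9% and 31.6% of all genes, and the median of the list was 0.36. The genes called were *MOB1B* (log2 difference 0.64), *LATS1* (0.58) and *STK3* (0.44), whereas *MOB1A* (0.29), *STK4* (0.17) and *SAV1* (−0.15) were not. Under median scaling these differences move down with all genes, by the shift given above.

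The effectors are *WWTR1*, which encodes the YAP paralog TAZ, the TEAD factors and the TEAD cofactors of the VGLL family. *VGLL1* was not well above background and the other 8 were measured. After *miR-486-3p* limma called 6 of 8 lower and 1 higher, against 31.6% and 31.9% of all genes, and the median was −0.87, where that of all genes was 0.06. Without *VGLL2*, which passed the background filter through other arrays, 5 of 7 were lower and 1 higher, with a median of −1.06. *WWTR1* read 1.32 after *miR-486-5p*, 0.45 after *miR-486-3p*, 1.90 on mock 1 and 1.93 on mock 2, below both mock arrays after each strand, and it fell 2.76-fold after *miR-486-3p* (log2 difference −1.46, SE 0.0886, adjusted p = 0.00841). Among TEAD genes, *TEAD4* fell 2.58-fold, *TEAD2* 2.09-fold and *TEAD3* 1.46-fold after that strand, and *TEAD1* was not called (log2 difference 0.20). *VGLL3* fell 2.20-fold, *VGLL2* was at least 1.59-fold lower, and 1 probe of *VGLL4* was called higher (gene difference 0.39). After *miR-486-5p* limma called 0 of 8 (3 lower and 2 higher at an unadjusted p), and differences ran from −0.60 for *WWTR1* to 0.63 for *VGLL4*, with *VGLL2* at 0.59, *VGLL3* at 0.41, *TEAD1* at 0.22, *TEAD3* at −0.18, *TEAD4* at −0.47 and *TEAD2* at −0.50.

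Of 15 further YAP/TAZ target genes, 14 were measured. After *miR-486-3p* 8 were called lower and 3 higher, against 31.6% and 31.9% of all genes, with a median of −0.58. The falls included *FJX1* (log2 difference −1.93, 3.80-fold lower) and the kinase gene *NUAK2* (−1.33), and the rises *NT5E* (1.55), the ecto-nucleotidase CD73, and *F3* (0.67), tissue factor. After *miR-486-5p* 3 were called lower (*IGFBP3* at −1.90, *TGFB2* at −1.13 and *NT5E* at −0.85) and 0 higher (4 at an unadjusted p), against 6.66% and 3.58% of all genes, with a median of −0.06. These calls, like all others in the lists for this strand, were lost with the authors' values and with no filter. *CCDC80*, at 0.81, was the highest there and was not called (adjusted p = 0.0945).

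Among 25 measured upstream regulators, 8 fell and 7 rose by limma after *miR-486-3p* (median difference 0.15), against 31.6% and 31.9% of all genes, so the list did not stand apart in these counts. Without *CRB3*, which was not well above background after either strand, 7 of 24 fell and 7 rose (median difference 0.23). For *miR-486-5p* these counts were 2 and 0, against 6.66% and 3.58%, or 9 and 7 at an unadjusted p (median difference −0.07), and *CRB3* was 1 of the 2. *AMOT*, the founding angiomotin gene, fell 2.78-fold after *miR-486-3p* (log2 difference −1.48), and *MAP4K2* fell 3.13-fold (−1.65), while *MAP4K1* rose 2.37-fold (1.25). *WWC3*, of the KIBRA family that activates LATS kinases, fell after *miR-486-5p* (log2 difference −1.29) and rose after *miR-486-3p* (1.07). After *miR-486-5p*, *FAT4* (0.79), *TAOK1* (0.69) and *TAOK3* (−0.65) passed 0.5 and were not called.

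Of the family relatives of the members, 10 entered limma, where 3 fell, 3 rose and *RDX*, whose probes were called in opposite directions, counts on both sides after *miR-486-3p* (31.6% of all genes lower and 31.9% higher, median difference 0.19, or 0.06 without *CCN5*, a bound counted among the rises) and 0 were called after *miR-486-5p* (4 lower and 1 higher at an unadjusted p), with a median of −0.07. *EZR*, which encodes ezrin of the same protein family as merlin, fell 3.23-fold after *miR-486-3p* (log2 difference −1.69), and *TYRO3*, the relative of *AXL*, fell 2.76-fold (−1.47). *CCN3*, of the family of *CCN1* and *CCN2*, rose 1.92-fold (0.94), and *ANKRD23* had a gene difference of 0.67. After *miR-486-5p*, *TYRO3* was at −0.71 and was not called (adjusted p = 0.0537).

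**Figure D5:**
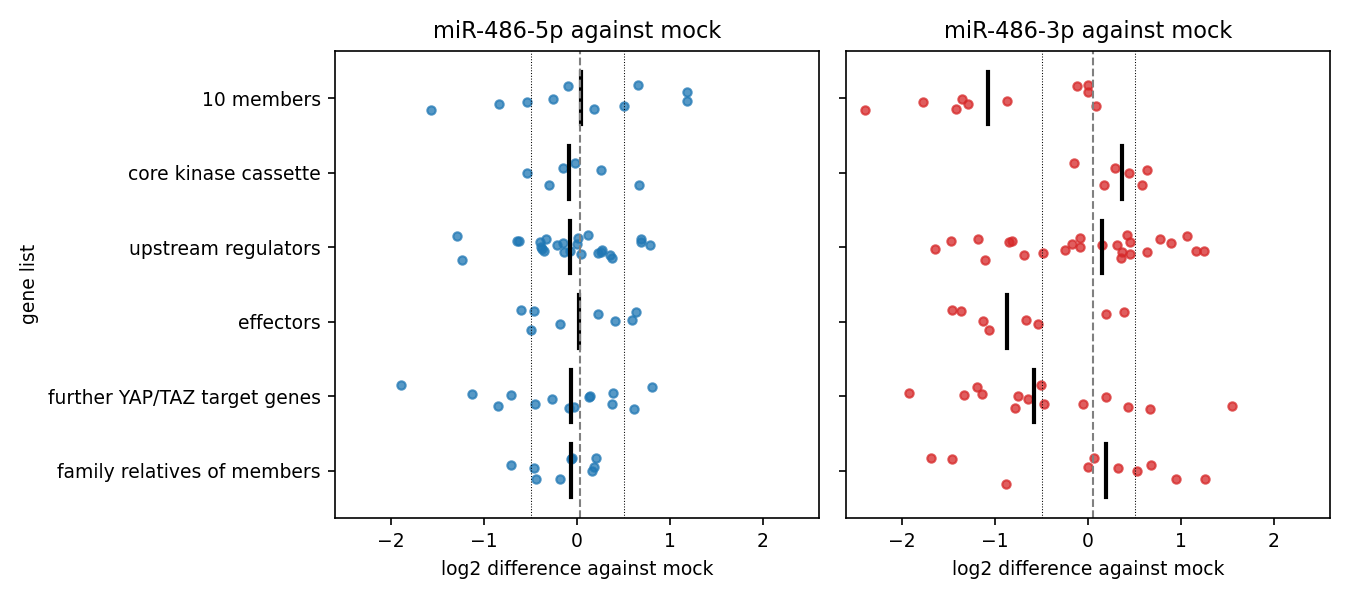
Log2 difference against mock of each measured gene (points, spread vertically for sight) in the 10 members and in 5 lists of pathway genes, for *miR-486-5p* (left) and *miR-486-3p* (right). Black bars are list medians, the dashed line is the median of all genes and dotted lines are ±0.5; after *miR-486-3p* the medians of the members (−1.08, with *ANKRD1* and *ARHGAP29* as bounds), the effectors (−0.87) and the further target genes (−0.58) lie below −0.5, and that of the core kinase cassette (0.36) above 0.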

How the data were processed

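The authors deposited, for each of 4 one-color Agilent arrays (Feature Extraction 12.1.1.1, hg19 annotation), spot intensity on a linear scale, already background-corrected by that software. A second deposited file holds the authors' log2 values; its columns have a median of 2.76 each and correlate with the log2 scanner signal at 0.9996 to 0.9999, its scale is thus log2, and its normalization is not given in the sources used here. Other fields used were deposited scanner flags for controls, outliers and signal well above background.

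The log2 of the processed signal was taken and the 75th percentile over spots other than controls (105, 93.1, 114 and 114) was subtracted. Outlier spots (67, 72, 62 and 50) were left out, and spots of a probe were averaged; 300 probes had several. No spot was saturated. A probe was used if it was well above background on the transfected array or on mock 1 and mock 2 together. Where a side was not well above background on any of its arrays, it was raised to the lowest signal of any such probe (−4.61, −4.39, −4.73 and −4.73 in the order *miR-486-5p*, *miR-486-3p*, mock 1, mock 2) unless its own was higher, which gives a bound. Differences of a gene's used probes were averaged. Of 33080 probes listed by RefSeq accession, 31101 matched 1 gene of a GRCh38.p14 table, used for names because the arrays were annotated on another build.

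limma 3.58.1 (R 4.3.3; lmFit, eBayes) was fitted to 33498 probes and 3 groups and adjusted over all of them at 0.05. Its 1 residual degree of freedom lies between the mock arrays, the prior SD was 0.0893 with 1.75 degrees of freedom, and the spread between mock arrays stands in for that of a lone transfected array. A gene is called if 1 or more of its probes is. Whether the mock arrays came from separate cultures is not given, so p-values measure only the spread between these arrays, which may be technical. Over 28246 probes that passed on all arrays, the SD of the difference between the mock arrays was 0.196, and the SD of the difference from the mock mean was 0.522 after *miR-486-5p*, 0.976 after *miR-486-3p*. The arrays came from 1 slide and 1 scan.

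The members and lists were chosen with earlier results of these data known. Besides the members named in the opening, *WWTR1* and *TYRO3* of the lists are among the authors' putative targets of both strands, chosen partly from these arrays. Named genes are the members, the measured kinase cassette and effector genes, up to 2 largest falls and 2 largest rises per other list and strand (past 0.5, probes well above background on all arrays, outside both mock arrays), and the 3 genes nearest *CCN2*. Genes named as limma calls beyond that rule were chosen after their values were seen. Alternatives were median scaling, quantile normalization, normexp, the authors' log2 values, other filters, the brightest probe, a limit of 1, an intensity trend, the methods' t-test, and each mock array left out. The methods' t-test is the Student's t-test that the methods name for 2 groups, here 1 transfected array against both mock arrays. The methods describe no test of these arrays. Tables were made with Python 3.11.15, pandas 2.3.3 and scipy 1.17.1.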

Additional observations from a re-analysis of the deposited data

Results flagged for a closer look

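Most members passed limma's threshold for *miR-486-3p* minus *miR-486-5p*, a comparison of 2 single arrays whose p-values rest on the spread between the mock arrays and do not measure variation between transfections. The log2 differences were −1.60 and −0.87 for the probes of *NF2* (adjusted p = 0.0143 and 0.0207), −1.18 for *LATS2*, −0.66 for *AMOTL2* and 0.65 for the second probe of *AMOTL1*. Among target genes they were −1.60 for *CCN1*, −2.05 for *CCN2*, −1.10 for *AXL*, and, on measured values that include a signal not well above background, −2.27 for *ANKRD1* and −1.26 for *ARHGAP29*. As bounds, *ANKRD1* and *ARHGAP29* were at least 1.36-fold and 1.77-fold lower after *miR-486-3p*. *CCN2* was the member that passed 0.5 in opposite directions.

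Among the named genes of the lists, 4 passed 0.5 in opposite directions and passed the same threshold, with the same limit. Of 15808 genes measured for both strands, 2.02% lay above 0.5 after *miR-486-5p* and below −0.5 after *miR-486-3p*, and 2.93% the other way round. *WWC3* differed by 2.36 (adjusted p = 0.0119) and *NT5E* by 2.40 (smallest adjusted p of its probes 0.0119), both lower after *miR-486-5p* and higher after *miR-486-3p*. *CCDC80* differed by −2.01 (adjusted p = 0.0190) and *VGLL2* by −1.26 (adjusted p = 0.0133, a bound since its *miR-486-3p* signal was not well above background). Of all genes tested, 27.3% were called lower and 26.7% higher in this contrast.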

How the results depend on the processing

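No paired analysis was possible because each strand had a single array and the mock arrays carry no pairing with them. Each strand rests on 1 array and each call on the spread between 2 mock arrays, so a difference that belongs to 1 culture, 1 transfection or 1 hybridization and an effect of the strand cannot be told apart. Transfected RNA as such was not tested, since no array with a control miRNA was analysed. The slide as a block was not run, because all arrays lay on 1 slide. RNA levels alone were measured, so YAP protein, its phosphorylation and its place in the cell were not tested.

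Of 204 tested values of member differences under an alternative, 175 stayed called or stayed uncalled and, where called, kept the sign of the gene mean. A gene counted as called if a probe was called in either direction. The others were 13 that lost the call, 11 that gained it and 5 that reversed. Without either mock array no residual degree of freedom is left, so these are values with no test; no called member changed direction, and counts past 0.5 stayed within 1.5 times those given. *AMOTL1*, whose probes disagreed, turned from −0.12 to 0.18 after *miR-486-3p* with normexp and to 0.77 with the brightest probe, and from −0.02 to 0.16 and 0.65 for *miR-486-3p* minus *miR-486-5p*. Under median scaling its call between the strands turned from higher to lower, with the gene mean at −0.33. That value counts among the 175, since the gene mean kept its sign. *ANKRD1* turned from −0.44 to 0.0242 with normexp in that contrast. The causes were not tested. With the brightest probe, 1 member in place of 0 lay above 0.5 after *miR-486-3p* and 1 in place of 0 between the strands.

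After *miR-486-5p*, the number of limma calls depended most on the setting. Of the members, limma called 1 lower and 2 higher; it called 3 and 4 with normexp, 3 and 5 with an intensity trend, 2 lower with median scaling, 4 higher with probes well above background on all arrays, and 0 and 0 with the authors' log2 values or no filter. The methods' t-test gave 2 lower without adjustment and 0 and 0 with it. Of the pathway lists, 5 were called lower and 0 higher; the counts were 11 and 2 with median scaling, 1 higher with quantile normalization, 18 and 19 with normexp, 14 and 12 with probes well above background on all arrays, 21 and 14 with an intensity trend, and 13 and 9 by the methods' t-test without adjustment. They were 0 lower with the authors' values, with no filter and by the adjusted t-test. Of all genes, 1109 were called lower and 596 higher; the counts were 2462 and 1049 with median scaling, 3845 and 3695 with normexp, 3099 and 2678 with probes well above background on all arrays, 4170 and 3699 with an intensity trend, 2335 and 2047 by the unadjusted t-test, and 0 and 0 with the authors' values, no filter or the adjusted t-test.

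Counts past 0.5 after *miR-486-5p* were 3 members below and 4 above. They were 0 below with normexp, 1 below with probes well above background on all arrays, and 1 below and 2 above at a limit of 1. For the lists, 11 below and 8 above became 6 and 1 with normexp and 4 and 0 at a limit of 1. For all genes, 2549 below and 2213 above became 1316 and 731 with normexp and 739 and 406 at a limit of 1, and 3320 lay above with no filter.

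After *miR-486-3p*, 7 members called lower and 1 higher became 4 and 0 by the unadjusted t-test and 0 and 0 by the adjusted one, and 0 were higher with median scaling. For the lists, 26 lower and 18 higher became 0 and 0 by the adjusted t-test, with 8 higher by the unadjusted t-test, 8 with median scaling and 10 with no filter. For all genes, 5261 lower and 5309 higher became 0 and 0 by the adjusted t-test, with 3259 higher by the unadjusted t-test and 3307 with median scaling. Past 0.5, the lists went from 24 below and 14 above to 14 and 6 with normexp and 14 and 5 at a limit of 1, with 6 above under median scaling. All genes went from 4467 below and 5006 above to 7082 and 2807 with median scaling and 2311 and 2431 at a limit of 1, with 2505 above under normexp.

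Between the strands, 1 member called higher became 0 with no filter, and with median scaling, where the members called lower went from 8 to 10. For the lists, 11 called higher became 18 with normexp and 17 with an intensity trend, and 19 below and 12 above 0.5 became 11 and 6 with normexp, with 7 below at a limit of 1. For all genes, 4378 below and 4741 above became 2801 and 2345 with normexp and 2150 and 2323 at a limit of 1, with 3073 above under median scaling.

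Calls were gained after *miR-486-5p* by *NF2*, *AMOTL2* and *YAP1* with normexp and with probes well above background on all arrays, by *AXL* with normexp and by *ANKRD1* with median scaling. Between the strands *YAP1* gained one with median scaling, normexp and probes well above background on all arrays. Uncalled differences near 0, such as that of *AMOTL2* after *miR-486-3p*, took either sign. *LATS2*, *CCN2* and *ARHGAP29* lost their *miR-486-5p* calls with the authors' values and with no filter. After *miR-486-3p*, *AMOTL1* lost its lower call with normexp and with no filter, and its higher call with median scaling. *ANKRD1* lost its *miR-486-3p* call with normexp, and *AMOTL2* lost its call between the strands with quantile normalization, the authors' values and no filter. In that contrast *ARHGAP29* also lost its call with normexp and no filter, and *AMOTL1* with no filter. *ANKRD1* and *ARHGAP29* dropped out where a probe had to be well above background on all arrays.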
